A study of Homo sapiens with 4 samples.

Results

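The BCL2 family decides whether a cell keeps or loses the integrity of its mitochondria. The 10 family genes described here were taken by symbol: BCL2, BCL2L1, BCL2L2 and MCL1, which encode pro-survival proteins, BAK1, which encodes a pore-forming effector, and BAD, BID, BCL2L11, PMAIP1 and BIK, which encode BH3-only proteins. Counts were found for 8 of these 10 genes, out of 15221 genes with counts in all, and the same 8 passed the minimum for testing. BCL2 and BIK were listed by symbol without a row of counts, so their levels were not analysed here.

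RNA was compared between PANC-1, a pancreatic adenocarcinoma cell line that was left untransduced, and PZT-2, a single clone of it in which lentiviral short hairpin RNAs (shRNAs) directed at both H2A.Z genes were kept under puromycin selection to deplete the 3 isoforms of the histone variant H2A.Z. Each line gave 2 libraries, which the study describes as biological replicates, and both lines were at passages 12 to 13 in the same medium. The study had asked whether fewer cells after the knockdown came from cell death or from senescence, and the family genes bear on the first of these at the level of RNA. At the protein level it saw no significant difference in PARP or caspase processing and no overactive caspases, with survivin in all cells. It concluded that apoptosis was not behind the lower cell numbers. A change between an untransduced line and 1 selected clone cannot be told apart from what transduction, selection or the choice of that clone brought with it, and libraries of cells with a scrambled shRNA are not analysed here.

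In healthy cells the pro-survival proteins hold BAK1 and its relative BAX in check. BH3-only proteins are produced or released under stress, fill the groove of the pro-survival proteins with a short helix called the BH3 domain and, in some cases, activate BAK1 and BAX directly. Once BAK1 or BAX forms pores, cytochrome c leaves the mitochondria and caspases are switched on. Pancreatic adenocarcinoma is known for resisting this route, and BCL2L1 and MCL1 are the pro-survival members most often discussed in it.

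The BH3 helix is the feature that all 10 genes share, and its codons are shown to place the members beside each other. They were read 5′ to 3′ on the coding strand of GENCODE 29 transcripts (GRCh38) from the longest usual isoform of each gene. The capitals mark the codon of the hydrophobic residue that opens the core of the helix, which is leucine or methionine, and the pair of codons for its small residue, glycine or serine, and the aspartate that follows. Each stretch of 24 bases lies within 1 coding exon.
BCL2 (chr18:63318355-63318378, minus strand): CTCcgccaggccGGCGACgacttc
BCL2L1 (chr20:31721928-31721951, minus strand): CTGagggaggcaGGCGACgagttt
BCL2L2 (chr14:23307903-23307926, plus strand): ATGcgggcagctGGAGATgagttc
MCL1 (chr1:150578871-150578894, minus strand): TTAcgacgggttGGGGATggcgtg
BAK1 (chr6:33575393-33575416, minus strand): CTCgccatcatcGGGGACgacatc
BAD (chr11:64271628-64271651, minus strand): CTCcggaggatgAGTGACgagttt
BID (chr22:17739421-17739444, minus strand): CTCgcccaggtcGGGGACagcatg
BCL2L11 (chr2:111150103-111150126, plus strand): TTGcggcgtattGGAGACgagttt
PMAIP1 (chr18:59902673-59902696, plus strand): CTCaggagatttGGAGACaaactg
BIK (chr22:43127716-43127739, plus strand): CTGgcctgcatcGGGGACgagatg
The pattern that found them, leucine or methionine, then arginine or alanine, then any 2 residues, then glycine or serine and aspartate, had 1 match in each of the 10 proteins. It also occurs in 5.38% of 19530 protein-coding genes, so a match is a description and not a test of function. BCL2L2 alone opens with a methionine codon, and BAD alone has the serine codon.

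The 4 libraries held between 12861035 and 15717239 estimated counts. The knockdown itself was visible in the targeted genes, each with adjusted p from edgeR's quasi-likelihood test: H2AFZ, the gene of H2A.Z.1, fell by 1.47 on the log2 scale (adjusted p = 6.3e-05), and H2AFV, the gene of H2A.Z.2, fell by 0.36 (adjusted p = 0.0057; 0.0597 without PZT-2 replicate 1). Epithelial keratins marked all libraries, with KRT8, KRT18 and KRT19 between 12384 and 41935 normalized counts. KRT7 and EPCAM had between 82.1 and 143 counts, and all 5 of these markers were lower in PZT-2. Of 8 markers of other cell types, the leukocyte gene PTPRC, the endothelial VWF and the pancreatic PRSS1, CPA1 and INS gave no count row and PECAM1 stayed between 4.03 and 12.4 counts, whereas CD68 was at 1578 to 1708 and COL1A1 fell from 494 and 531 to 170 and 135 counts. The PANC-1 libraries differed more from each other than the PZT-2 libraries did, with a chi-square per gene of 6.23 against 3.51.

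Of the 8 family genes tested, 4 rose in PZT-2 (MCL1, BAK1, BID and PMAIP1) and none fell. Across all 15101 genes tested, 14.7% were called higher and 13.7% lower, so a call in either direction was common (28.4% of genes). In RNA from whole cultures, less RNA per cell and fewer cells that express a gene cannot be told apart. Members that rose came from all 3 roles, a pro-survival gene, the effector and 2 BH3-only genes. The median log2 fold change of the 8 was 0.31, against 0.00090 over all tested genes. PANC-1 and PZT-2 libraries did not overlap for 7 of the 8 genes, 5 higher and 2 lower in PZT-2, where 33.3% and 33.0% of all tested genes did so. The calls rested on each library: which members passed changed with any 1 library left out, and MCL1 alone passed each time. Such a fit leaves 1 library in a line, so its spread comes from the 2 libraries of the other line. An adjusted p given with a library left out hence does not measure the spread of the line that lost it.

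**Figure D1:**
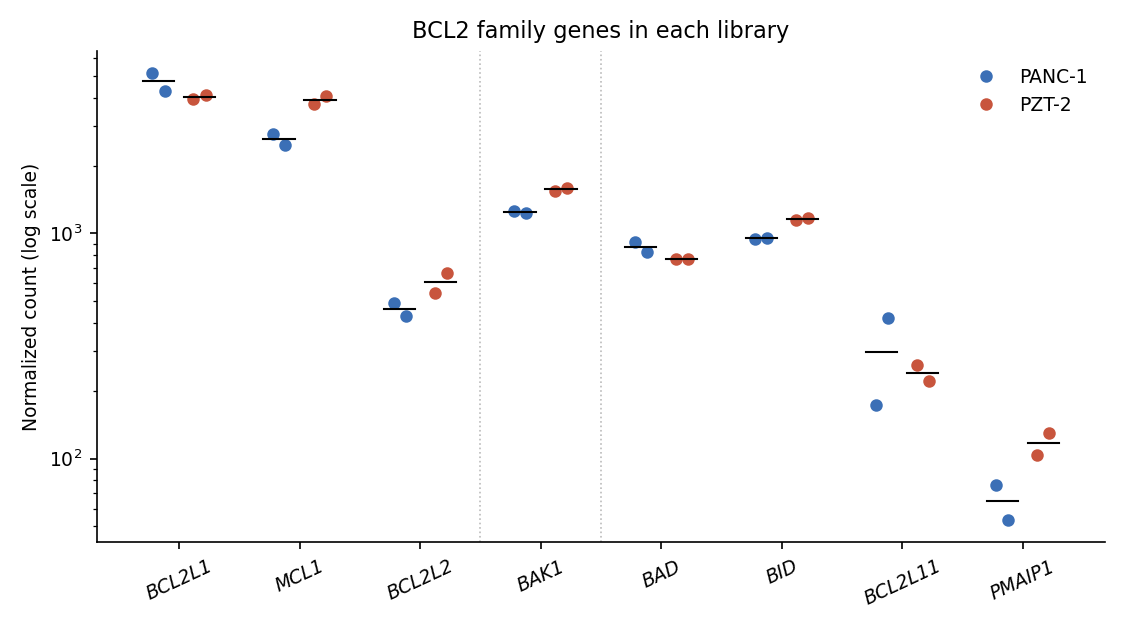
Normalized counts of the 8 BCL2 family genes (vertical axis, log scale) in each of 2 PANC-1 and 2 PZT-2 libraries (points), with the group mean as a black line; dotted lines divide pro-survival genes, the effector and BH3-only genes. Both PZT-2 points of MCL1, BAK1, BID and PMAIP1 lie above both PANC-1 points, and the 2 PANC-1 points of BCL2L11, 172 and 420, lie on either side of the PZT-2 points.

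Levels between genes were compared in TPM, an abundance that allows for transcript length and has the same total in each library. BCL2L1 stood first in every library, between 208 and 255 TPM. In both PANC-1 libraries it was followed by BAD (125 and 134 TPM), MCL1, BAK1 (75.5 and 76.5 TPM) and BID. In both PZT-2 libraries MCL1, at 125 and 133 TPM, stood above BAD, at 120.0 in each, and in replicate 1 that gap was smaller than the MCL1 spread of 6.01 TPM (SD, n = 2). BCL2L2 came sixth in all 4 libraries with 15.9 to 25.1 TPM. BCL2L11 and PMAIP1 were the lowest members, between 3.76 and 12.5 TPM, and did not differ from each other beyond their spread in PZT-2.

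MCL1, on chr1:150574551-150579738 (GRCh38, minus strand), encodes a short-lived pro-survival protein that binds BAK1, BCL2L11 and PMAIP1. It had 2758 and 2478 normalized counts in PANC-1 replicates 1 and 2 and 3774 and 4059 in PZT-2 replicates 1 and 2. The lines were thus well apart, with means of 2618 ± 198 and 3917 ± 201 (SD, n = 2). MCL1 rose 1.50-fold (log2 fold change 0.58, SE 0.073, 95% interval 0.41 to 0.76, adjusted p = 0.0025). It was the family gene with the smallest adjusted p and kept its call in all 16 alternative fits, with a log2 fold change of 0.50 to 0.66. The 20 tested neighbours of MCL1 on its chromosome had a median log2 fold change of -0.18, with 1 called higher and 3 lower.

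BCL2L1, on chr20:31664452-31723989 (minus strand), encodes Bcl-xL, which guards the mitochondria against BAK1 and BAX and also sequesters BAD. PANC-1 replicates had 5155 and 4313 normalized counts and PZT-2 replicates 3964 and 4122. Both PZT-2 values lay under both PANC-1 values, but the gap to the nearer PANC-1 library was smaller than the gap between the PANC-1 libraries. The log2 fold change of -0.23 (SE 0.088, 95% interval -0.44 to -0.015) did not pass the threshold (adjusted p = 0.104). It was -0.36 without PANC-1 replicate 2 and -0.098 without PANC-1 replicate 1. The adjusted p stayed above 0.05 in every alternative fit that kept all 4 libraries.

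BCL2L2, on chr14:23298790-23311759 (plus strand), encodes Bcl-w, a pro-survival relative of Bcl-xL. Its normalized counts were 491 and 432 in PANC-1 and 544 and 667 in PZT-2. The libraries did not overlap, and the log2 fold change of 0.40 (SE 0.12, 95% interval 0.10 to 0.69) came close to the threshold without passing it (adjusted p = 0.0551). With all 4 libraries kept, BCL2L2 passed with a minimum of 10 counts in each (adjusted p = 0.0336) and with the version 4 dispersion (0.0482). No other alternative fit of all 4 libraries called it. The log2 fold change was 0.48 without PANC-1 replicate 1 and 0.54 without PZT-2 replicate 1, but 0.24 without PZT-2 replicate 2. A read-through transcript, BCL2L2-PABPN1, overlaps this gene and was counted separately at 165 and 243 normalized counts in PANC-1 and 198 and 234 in PZT-2, so the split of reads between them is uncertain.

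The 3 pro-survival members with counts added up to 359 and 316 TPM in PANC-1 and 353 and 374 TPM in PZT-2, which overlap. With BCL2A1, a further pro-survival gene outside the 10, the sums were 369 and 326 TPM in PANC-1 and 376 and 401 TPM in PZT-2, which do not overlap. Over all tested genes the median log2 fold change was 0.057 on log2(TPM + 0.1), against 0.00090 in the main fit. The sums in TPM are not corrected for this shift, and the gap from 369 to 376 TPM is not read as a rise. The make-up of the sum of the 3 members is described here without a test. BCL2L1 supplied 71.1% and 69.7% of it in PANC-1 and 58.9% and 57.6% in PZT-2. MCL1 supplied 24.1% and 25.3% in PANC-1 and 35.3% and 35.7% in PZT-2. The ratio of MCL1 to BCL2L1 in TPM was 0.339 and 0.362 in PANC-1 and 0.599 and 0.619 in PZT-2, so each PZT-2 library exceeded both PANC-1 libraries. Against the sum of the 4 BH3-only members with counts, the sum of the 3 stood at a ratio of 1.78 and 1.57 in PANC-1 and 1.69 and 1.75 in PZT-2, again overlapping. The BH3-only sum leaves out BBC3, BMF and HRK. It also leaves out BNIP3 of the wider family, at 86.2 and 92.7 TPM in PANC-1 and 109 and 122 TPM in PZT-2. The contribution of BCL2 itself was not analysed here.

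**Figure D2:**
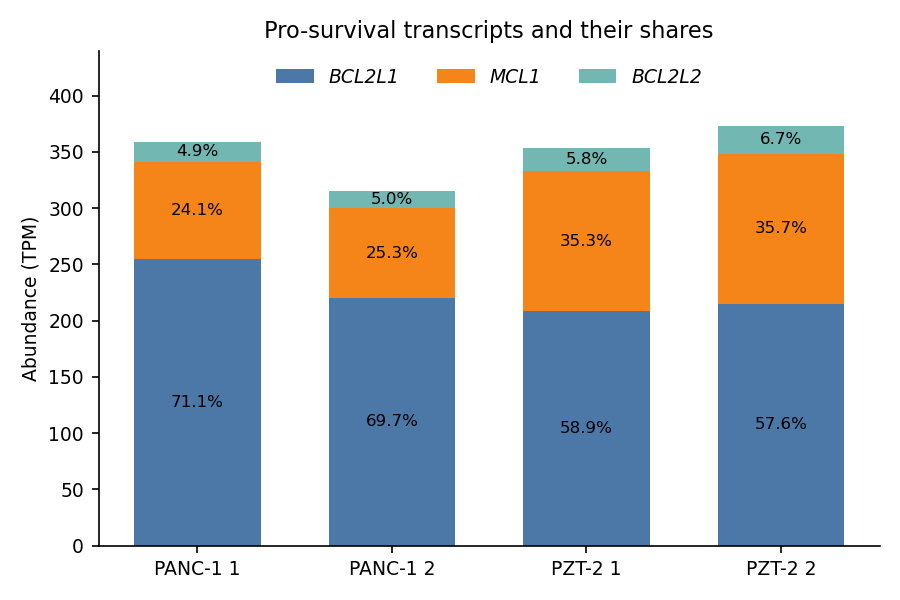
Abundance in TPM of the 3 pro-survival members with counts (vertical axis, stacked bars from 0) in each library, with the share of each gene in the sum printed in its segment. The height of the bars overlaps between the lines, from 316 to 374, while the MCL1 segment takes 24.1% and 25.3% in PANC-1 and 35.3% and 35.7% in PZT-2.

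Splicing gives MCL1 and BCL2L1 products with opposed actions, so their transcripts were examined one by one. The junctions that tell the long and short forms apart are shown, from GENCODE 29 transcripts. The last 15 bases of one exon are in lower case and the first 15 of the next in capitals. The long form of MCL1, of 350 residues, protects cells and joins exon 1 to exon 2, whereas the short form, of 271 residues, lacks exon 2 and behaves as a BH3-only protein. In BCL2L1 the short form Bcl-xS, of 170 residues, leaves exon 2 at an earlier donor than Bcl-xL, of 233 residues, reaches the same acceptor and favours death.
MCL1 long, exon 1 to exon 2: agacggccttccaagGCATGCTTCGGAAAC
MCL1 short, exon 1 to the last exon: agacggccttccaagGATGGGTTTGTGGAG
BCL2L1 long (Bcl-xL): gagaacggcggctggGATACTTTTGTGGAA
BCL2L1 short (Bcl-xS): cagagctttgaacagGATACTTTTGTGGAA
The MCL1 pair shares the bases before the junction and the BCL2L1 pair those after it. Estimated counts divide reads that fit several forms, so only reads across or inside the differing part separate them.

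The long MCL1 transcript (NM_021960) made up 91.8% and 94.5% of MCL1 in TPM in PANC-1 and 95.3% and 95.6% in PZT-2. Its normalized counts went from 2544 and 2361 in PANC-1 to 3604 and 3878 in PZT-2 (log2 fold change 0.61, 95% interval 0.42 to 0.80). The short form (NM_182763) had 177 and 129 normalized counts in PANC-1 and 123 and 169 in PZT-2, and its libraries overlapped (log2 fold change -0.069, 95% interval -0.92 to 0.78). As a share it took 6.79% and 5.51% in PANC-1 and 3.46% and 4.43% in PZT-2. The third form (NM_001197320, 197 residues) was listed at 0 in PANC-1 replicate 2 and PZT-2 replicate 2 and did not exceed 1.45% in the others. Of the 3 forms, the long one alone had normalized counts that did not overlap between the lines.

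Bcl-xS (NM_001191) amounted to 9.44% and 7.21% of BCL2L1 in PANC-1 and 8.03% and 11.9% in PZT-2, with overlapping libraries. The 7 transcripts that encode Bcl-xL together took 87.6% and 89.0% in PANC-1 and 88.8% and 84.4% in PZT-2, and NR_134257, which has no coding sequence in this annotation, took the remaining 2.92% to 3.80%. Among the Bcl-xL transcripts NM_138578 was lower, with 1256 and 1015 normalized counts in PANC-1 and 851 and 700 in PZT-2 (log2 fold change -0.55, 95% interval -1.02 to -0.083). NM_001322242 showed a like pattern with 888 and 919 counts in PANC-1 and 655 and 725 in PZT-2 (log2 fold change -0.39, 95% interval -0.62 to -0.16). Both encode a protein of 233 residues.

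No transcript of the family passed edgeR's quasi-likelihood test, in which 0.148% of 30403 transcripts were called. Of the 30 family transcripts tested, 4 had an unadjusted p under 0.05, as did 18.5% of all transcripts, with a lowest adjusted p of 0.0749, that of NM_021960. DESeq2 called 4 of the 30, where it called 14.5% of all transcripts: NM_021960 and the BAK1 transcript higher and NM_138578 and NM_001322242 lower, with adjusted p of 1.2e-13, 0.00016, 0.0125 and 0.0036. The transcript calls hence depended on the method, unlike the gene calls of MCL1 and BAK1.

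**Figure D3:**
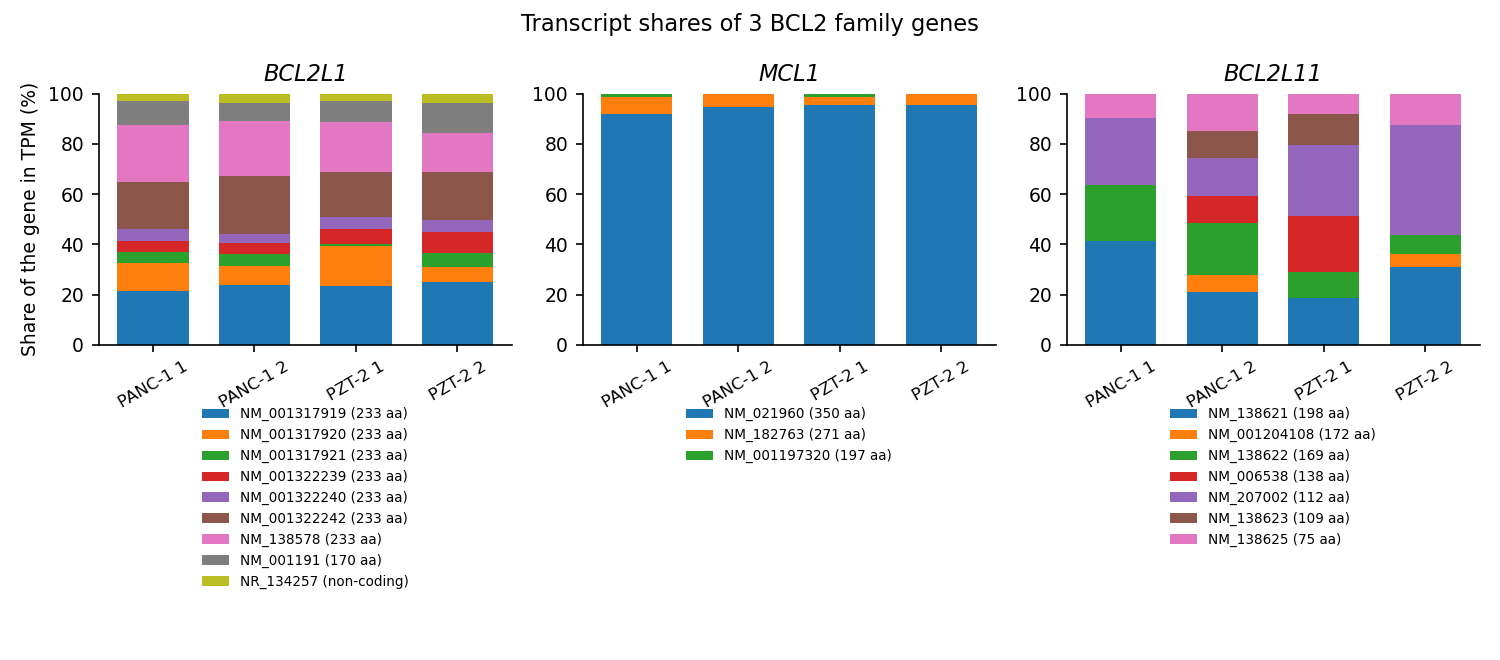
Share of each RefSeq transcript in the TPM of its gene (vertical axis, percent, stacked to 100) for BCL2L1, MCL1 and BCL2L11 in each library, with the length of the encoded protein in residues (aa). The long MCL1 form fills 91.8% to 95.6% of each bar, Bcl-xS (NM_001191) takes 7.21% to 11.9% of BCL2L1, and the extra-long form of BCL2L11 (NM_138621) takes 41.4% and 20.9% in PANC-1 and 18.5% and 31.0% in PZT-2. NM_138622 takes 22.1% and 20.7% of BCL2L11 in PANC-1 and 10.4% and 7.49% in PZT-2, which do not overlap.

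BAK1, on chr6:33572547-33580293 (minus strand), encodes an effector that sits on mitochondria and forms pores when activated. It had 1257 and 1235 normalized counts in PANC-1 and 1543 and 1597 in PZT-2. Its replicates differed 1.02-fold in PANC-1 and 1.03-fold in PZT-2, and the lines did not overlap. BAK1 rose 1.26-fold (log2 fold change 0.33, SE 0.060, 95% interval 0.19 to 0.48, adjusted p = 0.0084) and kept its call in 15 of 16 alternative fits, the exception being the fit without PZT-2 replicate 2 (adjusted p = 0.0824). BAX, the other pore former, moved the other way, from 781 and 797 normalized counts in PANC-1 to 649 and 686 in PZT-2 (log2 fold change -0.24, SE 0.071, adjusted p = 0.0468). The BAX call held in only 7 of 16 alternative fits and was lost when any 1 library was left out (adjusted p = 0.0555 and 0.0922 without PANC-1 replicates 1 and 2, 0.220 and 0.126 without PZT-2 replicates 1 and 2). In TPM, the ratio of BAK1 to BAX was 0.520 and 0.503 in PANC-1 and 0.790 and 0.757 in PZT-2.

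BID, on chr22:17734138-17774770 (minus strand), encodes the BH3-only protein that caspase-8 cuts to link death receptors to mitochondria. Its normalized counts were 948 and 953 in PANC-1 and 1145 and 1175 in PZT-2, the closest replicates in PANC-1 of all members. BID rose 1.22-fold (log2 fold change 0.29, SE 0.061, 95% interval 0.14 to 0.44, adjusted p = 0.0158). The call was lost without PZT-2 replicate 1 (adjusted p = 0.0737) and without PZT-2 replicate 2 (0.117), with the log2 fold change still at 0.27 to 0.31, and with the most abundant transcript alone (0.179). The transcript of 195 residues (NM_001196) held 74.3% to 89.4% of BID in TPM, and another BID transcript tested by the authors has no counts in the table used here.

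PMAIP1, on chr18:59899948-59904306 (plus strand), encodes NOXA, a BH3-only protein that binds MCL1 and promotes its breakdown. Only 77 and 53 normalized counts were found in PANC-1 and 104 and 131 in PZT-2, the fewest of the 8 genes. PMAIP1 rose 1.82-fold, the largest fold among the members (log2 fold change 0.86, SE 0.23, 95% interval 0.31 to 1.42, adjusted p = 0.0337). The call was lost without PANC-1 replicate 2 (adjusted p = 0.0737), PZT-2 replicate 1 (0.0592) or PZT-2 replicate 2 (0.189), with DESeq2 (0.0899) and with the most abundant transcript alone (0.112). PMAIP1 has only 1 transcript with counts, so no choice among isoforms was made for it in the last of these fits. Its own counts were unchanged there, and its log2 fold change was 0.85. That fit called 2124 genes in place of 4288. The PANC-1 replicates themselves differed 1.44-fold. Genes of the integrated stress response, known to act upstream of PMAIP1, differed between the PANC-1 replicates in the same direction: ATF4 had 3645 and 2206 normalized counts and DDIT3 793 and 412, against 4254 and 4411 and 673 and 731 in PZT-2. Their part in the PMAIP1 result was not tested.

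BAD, on chr11:64269830-64284704 (minus strand), encodes a BH3-only protein that survival kinases keep inactive by phosphorylation. It had 916 and 825 normalized counts in PANC-1 and 773 and 772 in PZT-2. PZT-2 values lay below both PANC-1 values, yet the log2 fold change of -0.17 (SE 0.077, 95% interval -0.36 to 0.015) did not pass the threshold (adjusted p = 0.152). Without PANC-1 replicate 2 the adjusted p was 0.0488 at a log2 fold change of -0.25. At 120 to 134 TPM, summed over its 2 transcripts, BAD was the most abundant of the listed BH3-only members in every library. Both transcripts encode the same 168 residues.

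BCL2L11, on chr2:111119378-111168447 (plus strand), encodes BIM, a BH3-only protein that can bind all pro-survival members and activate effectors. It had 172 and 420 normalized counts in PANC-1 and 260 and 221 in PZT-2. The PANC-1 replicates differed 2.44-fold and enclosed both PZT-2 values, the only overlap among the 8 genes. The log2 fold change was -0.32 (SE 0.37, 95% interval -1.20 to 0.56, adjusted p = 0.565), and it depended on a single library. It was -0.81 without PANC-1 replicate 1 and 0.47 without PANC-1 replicate 2, so no direction can be given for BCL2L11.

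The BIM isoforms were spread thinly over 7 transcripts with counts. The transcript of the extra-long form of 198 residues (NM_138621) had 93.3, 103, 65.3 and 111 normalized counts in PANC-1 replicates 1 and 2 and PZT-2 replicates 1 and 2. The long form of 138 residues (NM_006538) was listed at 0 in PANC-1 replicate 1 and ranged from 0.986 to 75.3 counts in the others. NM_138622, of 169 residues, had 50.6 and 104 counts in PANC-1 and 37.2 and 27.6 in PZT-2, the only BIM transcript lower in both PZT-2 libraries (log2 fold change -1.26, 95% interval -2.82 to 0.30). NM_207002, of 112 residues, was the only one higher in both, with 6.75 and 9.08 counts in PANC-1 and 11.1 and 17.7 in PZT-2. Its short length made it 15.5% to 43.4% of the gene in TPM but, as the group means of shares of counts, 3.04% in PANC-1 and 6.15% in PZT-2. None of these values passed the test, and 2 further BIM transcripts tested by the authors have no counts in the table used here.

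**Figure D4:**
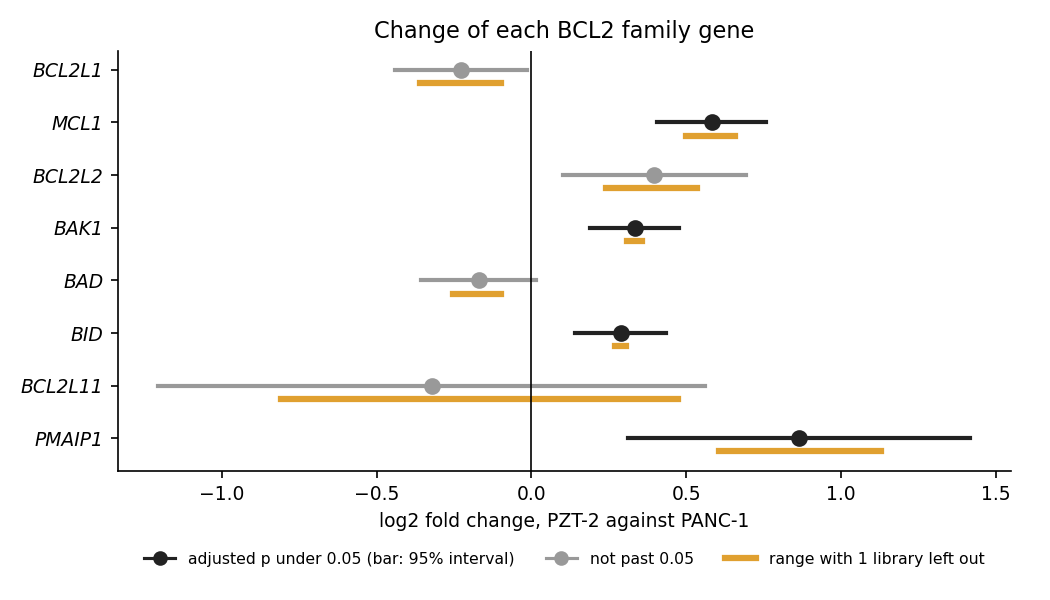
log2 fold change of PZT-2 against PANC-1 (horizontal axis) for each family gene, as a point with its 95% interval (black where the adjusted p was under 0.05, grey otherwise), and below it in orange the range of the estimate with 1 library left out in turn. The intervals of MCL1, BAK1, BID and PMAIP1 lie to the right of 0. So does that of BCL2L2, which was not called, and that of BCL2L1, also not called, lies to the left of 0. The orange bar of BCL2L11 runs from -0.81 to 0.47.

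Genes beside the members on their chromosomes were set beside them. The 20 tested neighbours of each member had medians between -0.18 (MCL1) and 0.10 (BCL2L1). For BAK1 the neighbours had a median of 0.090 with 5 called higher and 1 lower, for BID 0.013 with 2 higher and 1 lower, and for PMAIP1 -0.095 with 5 higher and 2 lower. These medians are descriptions without a test.

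The remaining genes of the death pathway were taken as 6 lists of 73 genes, 70 of them tested, of which 10 were called higher and 13 lower with a median log2 fold change of 0.014. Across all tested genes 14.7% were called higher and 13.7% lower. These shares are the background of each list count below, and no list was tested against them. Of 12 tested genes in the rest of the BCL2 family, 2 rose and 1 fell (median 0.039). BCL2A1, a further pro-survival gene and a target of NF-kappaB, had 63.0 and 58.7 normalized counts in PANC-1 and 133 and 159 in PZT-2 and rose 2.40-fold (log2 fold change 1.26, SE 0.17, adjusted p = 0.0032; 0.0699 with its most abundant transcript alone, the only 1 of 16 alternative fits to end the call). BNIP3, which acts in mitochondrial turnover, went from 1056 and 1100 to 1265 and 1420 counts (log2 fold change 0.32, adjusted p = 0.0246; 0.170 without PZT-2 replicate 2 and 0.0744 with its most abundant transcript alone). BAX, described above, was the gene that fell.

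Among 14 caspases and mitochondrial factors, 2 rose and 3 fell (median 0.060). HTRA2, a mitochondrial protease that counters inhibitor of apoptosis proteins, rose from 316 and 268 normalized counts to 448 and 472 (log2 fold change 0.66, adjusted p = 0.0063).

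Inhibitor of apoptosis proteins block caspases or support cell division, and of 7 such genes none rose and 3 fell (median -0.33). Of all tested genes 14.7% rose and 13.7% fell, and a list of 7 genes is too short to set against these shares. XIAP, a direct caspase inhibitor, fell from 1332 and 1263 normalized counts to 888 and 889 (log2 fold change -0.55, adjusted p = 0.0020). BIRC5, which encodes survivin and is made mostly by dividing cells, fell from 4821 and 4945 to 3664 and 3869 (log2 fold change -0.37, adjusted p = 0.0042). Both calls held with any 1 library left out, although that of XIAP was lost with its most abundant transcript alone (adjusted p = 0.286). BIRC7, the other gene that fell, went from 68.6 and 56.9 normalized counts to 19.1 and 15.8 (log2 fold change -1.83, adjusted p = 0.0049), and its call was also lost with its most abundant transcript alone (0.292).

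In the death receptor pathway, 2 of 12 tested genes rose and none fell (median 0.17). TNFRSF10B, a receptor for the death ligand TRAIL, had 1502 and 970 normalized counts in PANC-1 and 1853 and 1941 in PZT-2 (adjusted p = 0.0454 at a log2 fold change of 0.62). TNFRSF10D, a decoy receptor for the same ligand, rose from 134 and 155 to 194 and 202 counts (log2 fold change 0.45, adjusted p = 0.0447). TNFRSF10B lost its call without PZT-2 replicate 1 or 2 (adjusted p = 0.114 and 0.165), as did TNFRSF10D (0.137 and 0.196), which also lost it without PANC-1 replicate 1 (0.124). DESeq2 ended both calls as well (0.150 and 0.222), which held in 8 and 7 of 16 alternative fits.

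Proteins that set the stability or activity of family members gave 2 genes that rose and 3 that fell among 13 (median 0.017). USP13, a deubiquitinase that stabilises MCL1, rose from 712 and 778 normalized counts to 1010 and 990 (log2 fold change 0.42, adjusted p = 0.0076). The kinase PIM1 rose from 322 and 305 to 435 and 441 (log2 fold change 0.48, adjusted p = 0.0086), whereas the kinase PIM2 fell from 792 and 831 to 588 and 566 (log2 fold change -0.49, adjusted p = 0.0043). Leaving out PZT-2 replicate 1 or 2 ended the call of PIM1 (adjusted p = 0.0509 and 0.0620), as did its most abundant transcript alone (0.0809), and no single library ended those of USP13 and PIM2.

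Of 12 transcription factors known to control family genes, 2 rose and 3 fell (median -0.029). STAT3, known as an activator of BCL2L1 and MCL1, fell from 7070 and 6679 to 4810 and 4582 (log2 fold change -0.55, adjusted p = 0.0012). JUN rose from 2938 and 2397 to 3395 and 3738 (log2 fold change 0.42, adjusted p = 0.0262). The call of JUN was lost without PZT-2 replicate 1 (adjusted p = 0.0580), without PZT-2 replicate 2 (0.149) and with its most abundant transcript alone (0.0829).

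**Figure D5:**
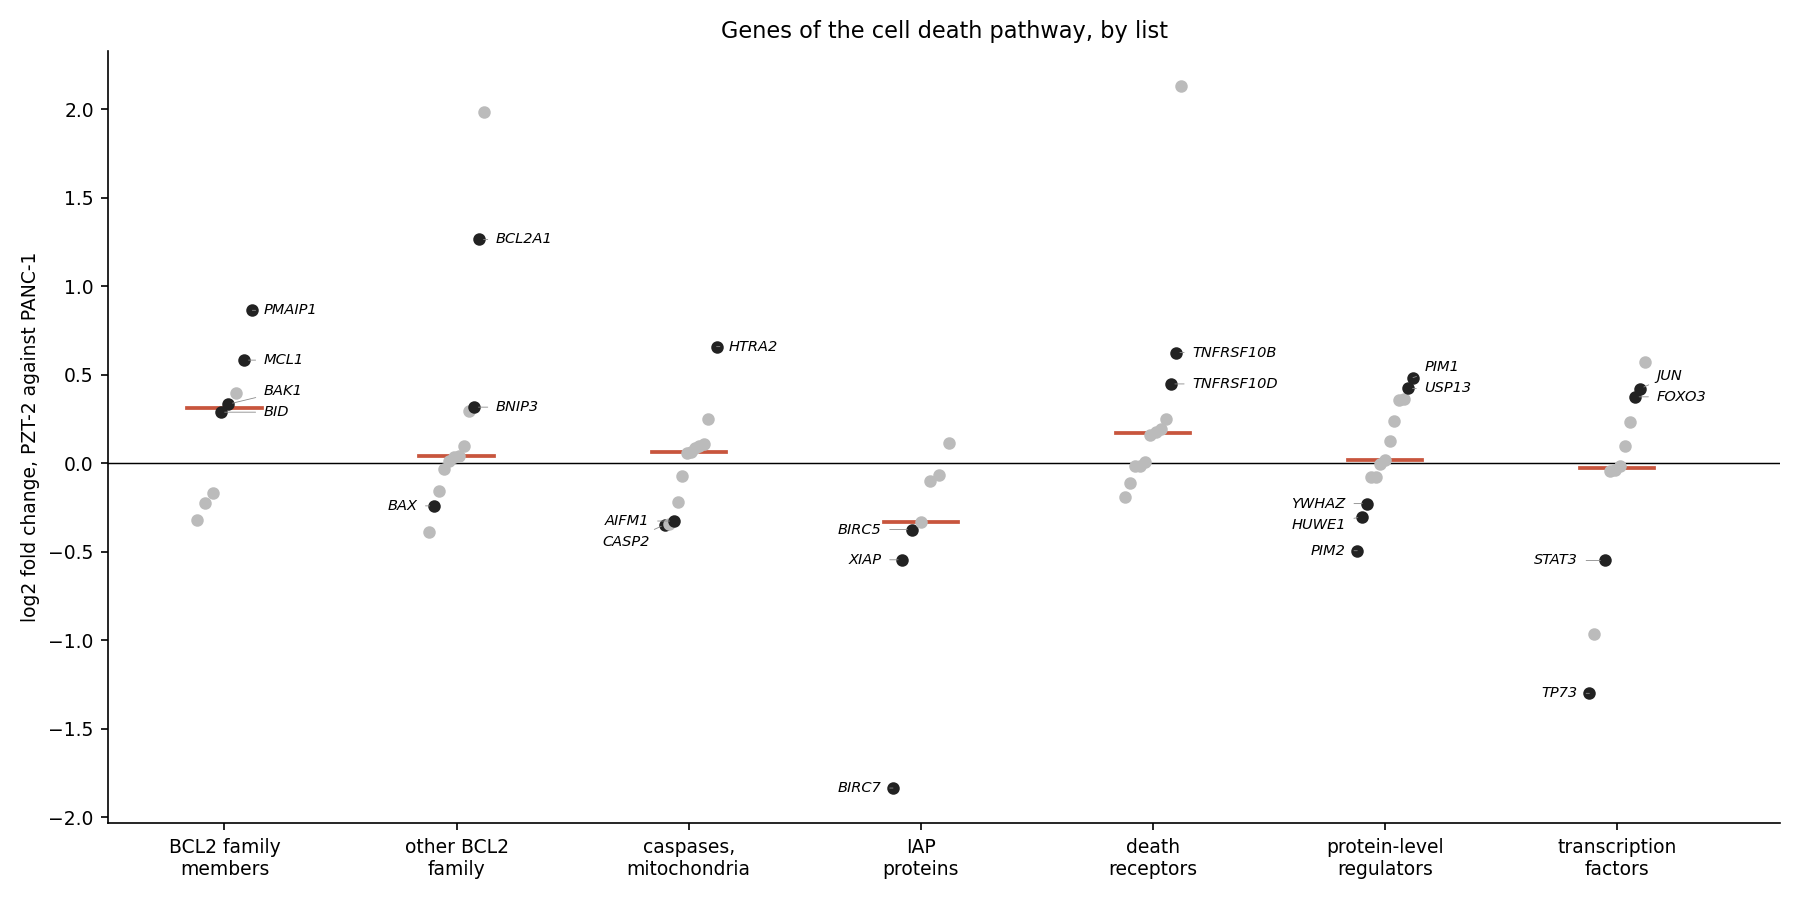
log2 fold change of PZT-2 against PANC-1 (vertical axis) for tested genes of 7 lists, 3 of them not shown, sorted within a list, with called genes in black and named, other genes in grey and the median of the whole list as a red line. Called family members all lie above 0 (0.29 to 0.86), and called genes of the inhibitor of apoptosis list all lie below it. Of all tested genes, 14.7% were called higher and 13.7% lower. The lists were written with earlier results of these data known.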

How the data were processed

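Stranded mRNA libraries of PANC-1 (n = 2) and PZT-2 (n = 2) had been sequenced as paired reads of 76 bases. The authors trimmed reads with Trim Galore 0.4.1, estimated counts of RefSeq transcripts with kallisto 0.43.0 and tested them with sleuth 0.29.0. Their test columns, which hold effects, p-values and q-values, were not used. The labels list hg19 as the build, and gene positions here are from GENCODE 29 on GRCh38.

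The deposited estimated counts carry 1 factor per library (0.935 to 1.16), which was undone before rounding. Values between 0.5 and 30 in single-transcript genes were then whole to within 0.01 for 44.5% to 45.2%, against 0.856% to 2.45% as deposited. Counts were summed per gene by the symbol of the table (27049 transcripts) or by accession in RefSeq (3925); 103 transcripts with 0.0466% of counts stayed unnamed. TPM were recomputed from counts and effective lengths.

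Genes and transcripts that reached 5 counts in 2 or more libraries were tested with edgeR 4.0.16 (TMM, quasi-likelihood) in R 4.3.3, with a Benjamini-Hochberg threshold of 0.05 over all genes or all transcripts. Fold changes are PZT-2 against PANC-1, normalized counts are scaled to the mean library, and intervals are 95%. The smallest p that exact permutation allows for 2 against 2 libraries is 0.333, so no permutation test was made. The tests were also run on simulated data with fewer changed genes than were called here, none of them at low counts. No conclusion is drawn from that run. The members and lists were chosen with earlier results of these data known. All members are named, as are H2AFZ and H2AFV and, from each list, the 3 called genes of largest change with a mean of at least 50 counts; results for some genes of the lists are not reported here. ATF4, DDIT3, BCL2L2-PABPN1, the BIRC7 remark, the marker values outside that rule and all ratios and shares of sums were chosen after values were seen.

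Alternatives were RLE size factors, DESeq2 1.42.0, no filter, a minimum of 10 counts in each of the 4 libraries, limma-trend (limma 3.58.1) on log2(TPM + 1) and log2(TPM + 0.1), the replicate number as a block, counts as deposited, the version 4 dispersion, length-scaled counts, the most abundant transcript alone, each library left out and, added after the data were seen, transcripts with a table symbol alone.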

Additional observations from a re-analysis of the deposited data

How the results depend on the processing

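Precision is limited by 2 libraries a line, by low counts for PMAIP1 and BCL2L11, and at transcript level by the division of reads among similar isoforms. The count of genes called (4288) was 2124 with the most abundant transcript alone and 1898 to 4668 with each library left out. The count of family genes called (4 of 8) was 2 with the most abundant transcript alone and 1 to 6 with each library left out, and that of list genes called (23 of 70) was 6 and 9 to 25. Transcripts called (45) were 4396 with DESeq2, 1209 with at least 10 counts in all 4 libraries, 348 with limma-trend on log2(TPM + 1), 342 with the version 4 dispersion, 19 with counts as deposited and 0 with each library left out, where the design is smallest. Family transcripts called (0) were 4 with DESeq2, 2 with at least 10 counts in all 4 libraries and 1 with limma-trend on log2(TPM + 1). Fits with 1 library left out take their spread from the other line alone, so their counts of calls are not on a par with the rest. The cause was not tested, other than fewer libraries or fewer counts by construction.

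The sign of BCL2L11 (-0.32) turned to 0.14 under limma-trend on log2(TPM + 1), to 0.16 under the same with 0.1 as the pseudocount, and to 0.85 with the most abundant transcript alone, and ran from -0.81 to 0.47 with each library left out. The most abundant BCL2L11 transcript was chosen by TPM and was the short NM_207002. It had only 6.75 and 9.08 normalized counts in PANC-1 and 11.1 and 17.7 in PZT-2. The short MCL1 transcript ran from -0.32 to 0.17 and Bcl-xS from -0.32 to 0.37. Over the 128 alternative values of the 8 family genes, 107 kept both direction and side of the threshold, 10 lost the call, 7 gained one and 4 turned sign.

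The replicate numbers of the labels showed no pairing, with a correlation of deviations of same-numbered libraries of -0.020. With 2 libraries a line, crossed libraries give the same value with the opposite sign (0.020). This cannot exclude that libraries were prepared in pairs. With the replicate number as a block 3700 genes, 3 family genes (PMAIP1 missed with adjusted p = 0.060), 21 list genes, 0 transcripts and 0 family transcripts were called. Within the lists, the block ended the calls of BAX (adjusted p = 0.076) and TNFRSF10D (0.059).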
